A study of Mus musculus with 4 samples.

Results

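Integrins are receptors for matrix and for other cells, each made of 1 alpha and 1 beta subunit. The subunits described here are 10 genes picked by symbol in a table of 12799 genes, in 3 sets: the vitronectin receptor subunits Itgav, Itgb3 and Itgb5, the beta1 integrin subunits Itgb1, Itga4, Itga5 and Itga6, and the leukocyte integrin subunits Itgb2, Itgam and Itgax. The table lists 12 further integrin subunits, which were not part of the choice. Poly(A) RNA was sequenced from bone marrow-derived monocytes of 12-week-old female mice after 3 days in M-CSF at 30 ng/mL and RANKL at 50 ng/mL, an early stage of osteoclast formation. Knockout cells were Csf1r-iCre;Piezo1fl/fl (n = 2), in which an iCre recombinase under Csf1r control deletes Piezo1, a stretch-activated cation channel, in the monocyte lineage. Control cells were Piezo1fl/fl without the recombinase (n = 2), which the titles call WT. Both groups thus carried the floxed alleles, and an effect of the recombinase itself cannot be told apart from one of Piezo1 loss. The number of animals behind each library is not stated.

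Osteoclasts attach to bone through a ring of podosomes, actin-rich contacts in which the vitronectin receptor alphav beta3 binds proteins that carry an RGD motif, such as osteopontin and bone sialoprotein. Engaged alphav beta3 signals through the kinases Src, Pyk2 and Syk to the cytoskeleton, and mice without Itgb3 form osteoclasts that resorb poorly. Macrophage precursors carry more alphav beta5 and the beta2 integrins of leukocytes, and in cultures with RANKL they are known to shift from Itgb5 towards Itgb3. Beta1 integrins bind collagens, laminins, fibronectin and VCAM-1.

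Between 14122118 and 18897927 reads were recovered per library from the deposited values, so that 1 read was worth 0.0544 to 0.0700 CPM, the unit of the deposited values, which scales reads to a common library size. Piezo1 was at 61.0 and 56.2 CPM in the knockouts, against 430.1 and 384 CPM in the controls, which is 14.4% of the control level (log2 fold change −2.79, SE 0.10, limma adjusted p = 8.23e-05). Of the markers of the labelled cells, all 10 for osteoclast precursors and all 8 for macrophages and monocytes were listed. The osteoclast markers had a summed level of 59963 and 74153 CPM in the knockouts and 61765 and 59069.6 CPM in the controls. Among them Dcstamp had the smallest p and did not pass (limma adjusted p = 0.475). It was at 838 and 877 CPM in the knockouts and 666 and 649 CPM in the controls. Being listed did not mean a high level. Among the macrophage markers, Csf1r, Cd68, Lyz2 and Adgre1 had knockout means of 1440, 1443, 508 and 43.8 CPM. Those of Mertk, Fcgr1, Cx3cr1 and Ccr2 were 7.63, 1.28, 4.23 and 2.65 CPM. Of the markers of other cells, 0 of 4 for B cells, 0 of 4 for mast cells and basophils, 1 of 5 for T and NK cells, 1 of 7 for dendritic cells, 2 of 5 for endothelium, 2 of 6 for megakaryocytes and platelets and 8 of 9 for neutrophils and their precursors were listed, the last with a summed level of 55.0 and 54.1 CPM in the knockouts and 46.9 and 86.7 CPM in the controls. Stromal, fibroblast and osteoblast markers were present, with 12 of 13 listed and a summed level of 1382 and 1274 CPM in the knockouts and 1964 and 2468 CPM in the controls. In bulk RNA, fewer cells of a type and less RNA per cell cannot be told apart.

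The 10 integrin subunits were all measured well above the filter on low values, and 0 of them passed the test between genotypes. The smallest number of reads for a subunit in any library was 392 and the largest 27940. Itgav, Itga4 and Itgam overlap other annotated genes that the table does not list, and whether reads were counted by strand is not stated. With limma across all 11781 genes tested, where 0.161% of genes passed (0.0424% higher and 0.119% lower), every subunit had an adjusted p of 0.99975. An unadjusted p under 0.05 was seen for 0 of the 10 and for 4.9% of all genes. On the recovered reads, 0 of the 10 passed with edgeR, beside 0.161% of all genes, and 0 with DESeq2, beside 0.56%. The groups did not overlap for 2 of the 10 subunits, Itgb1 and Itga5, while 31.9% of all genes tested had groups that did not overlap. The median log2 fold change of the 10 was 0.05, beside 0.0016 over all genes tested, with 6 positive and 4 negative.

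**Figure D1:**
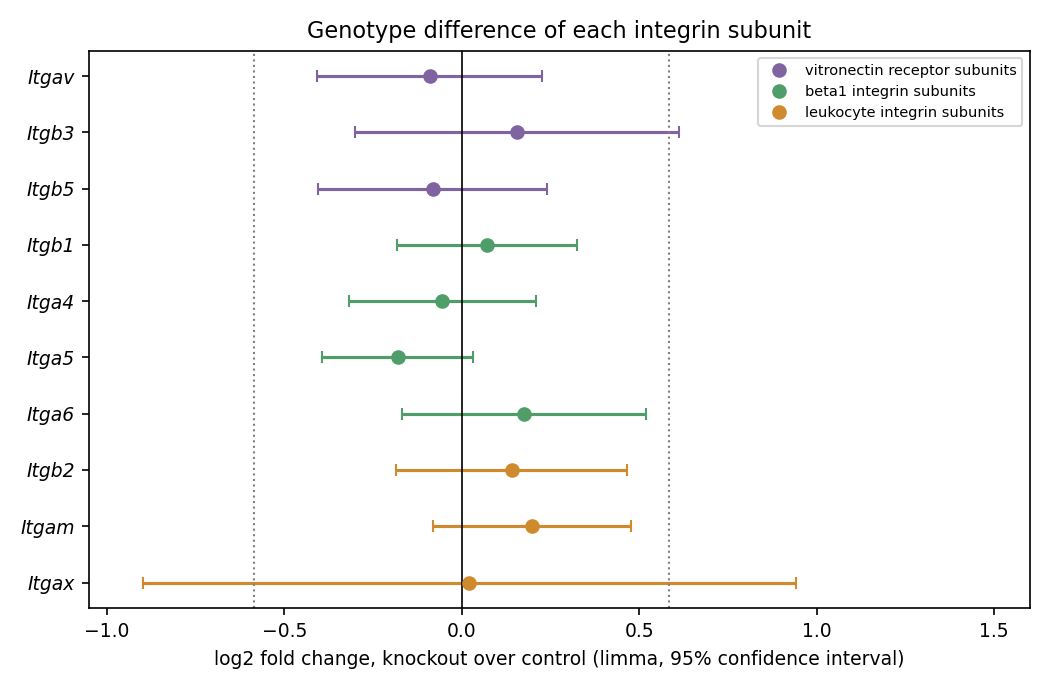
Log2 fold change of each integrin subunit (knockout over control, points) with its 95% confidence interval from limma (bars), coloured by set; dotted lines mark a 1.5-fold difference either way. All 10 intervals cross 0, and those of Itgb3 and Itgax reach past the dotted lines.

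A p-value that misses the threshold does not show equal levels, so the intervals give what the data allow. For 8 of the 10 subunits the 95% confidence interval of the log2 fold change, given below as the interval, lay within 1.5-fold either way. The exceptions were Itgb3, whose interval ran from 0.811-fold to 1.53-fold of the control level, and Itgax, whose interval ran from 0.536-fold to 1.92-fold. With 2 libraries a group, an exact permutation test of a single gene cannot go below p = 0.333, and p-values come from the fit across all genes.

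The vitronectin receptor is the integrin for which osteoclasts are best known. Itgav encodes the alpha subunit shared by several RGD-binding integrins (ENSMUSG00000027087.11; chromosome 2, 83724397 to 83806916, plus strand, GRCm38). It was at 1123 and 1302 CPM in the knockouts, against 1407 and 1179 CPM in the controls. The highest and the second lowest of the 4 values were both controls, so the groups overlapped, and the log2 fold change was −0.091 (SE 0.14, interval −0.41 to 0.23). Itgb3 encodes the beta3 subunit (ENSMUSG00000020689.4; chromosome 11, 104608000 to 104670476, plus strand). It was at 1051 and 1519 CPM in the knockouts, against 1285 and 1001 CPM in the controls. Knockout 2 was the highest library and control 2 the lowest, with the other libraries between them. The log2 fold change was 0.16 (SE 0.20, interval −0.30 to 0.61), or 1.11-fold, smaller than the 1.45-fold difference between the knockout libraries. Without knockout 2 it was −0.11, and without control 2 it was −0.025.

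Itgb5 encodes the beta5 subunit, the other main partner of Itgav in macrophages (ENSMUSG00000022817.15; chromosome 16, 33829665 to 33949338, plus strand). It was at 92.5 and 69.4 CPM in the knockouts, against 85.0 and 84.7 CPM in the controls. The knockout libraries lay on either side of the controls, which differed by 1.00-fold, and the log2 fold change was −0.082 (SE 0.14, interval −0.40 to 0.24). Per kilobase of annotated exon, Itgb3 exceeded Itgb5 in every library, 6.84-fold and 13.2-fold in the knockouts and 9.10-fold and 7.11-fold in the controls. Knockout 1 thus had the lowest and knockout 2 the highest ratio of beta3 to beta5 transcript.

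The bases before the annotated start are printed for Itgav and Itgb5, to set side by side the start regions of a vitronectin receptor subunit at a high level and of one at a low level. Each run is the 250 bases before the start on the gene's strand, 5′ to 3′, from RefSeq on GRCm38.p6, at chr2:83724147-83724396 for Itgav and at chr16:33829415-33829664 for Itgb5, both on the plus strand. Capitals mark GAGGAA or its reverse complement TTCCTC, the core bound by PU.1, a factor of the myeloid lineage.
Itgav: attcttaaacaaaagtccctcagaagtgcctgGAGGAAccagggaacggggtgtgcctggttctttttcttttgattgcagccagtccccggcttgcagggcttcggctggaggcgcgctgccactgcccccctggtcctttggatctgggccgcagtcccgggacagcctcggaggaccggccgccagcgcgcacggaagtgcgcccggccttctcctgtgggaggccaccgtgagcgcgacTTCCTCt
Itgb5: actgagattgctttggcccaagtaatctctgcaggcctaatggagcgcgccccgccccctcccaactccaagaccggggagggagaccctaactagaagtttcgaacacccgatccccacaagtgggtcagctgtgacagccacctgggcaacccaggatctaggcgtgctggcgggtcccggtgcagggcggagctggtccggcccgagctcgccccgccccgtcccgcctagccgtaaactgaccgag
The Itgav window held 2 such matches, starting 218 and 7 bases before the start of the gene, and the Itgb5 window held 0. Of the 7 subunits with a RefSeq window, 4 held the motif (Itgav, Itgb1, Itga5 and Itgam), while 22.6% of the 12775 windows of genes in the table did. A match of letters is a description and no evidence of binding. The collection of RefSeq windows used here held none for Itgb3, Itga6 and Itgb2, so their start regions could not be searched.

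**Figure D2:**
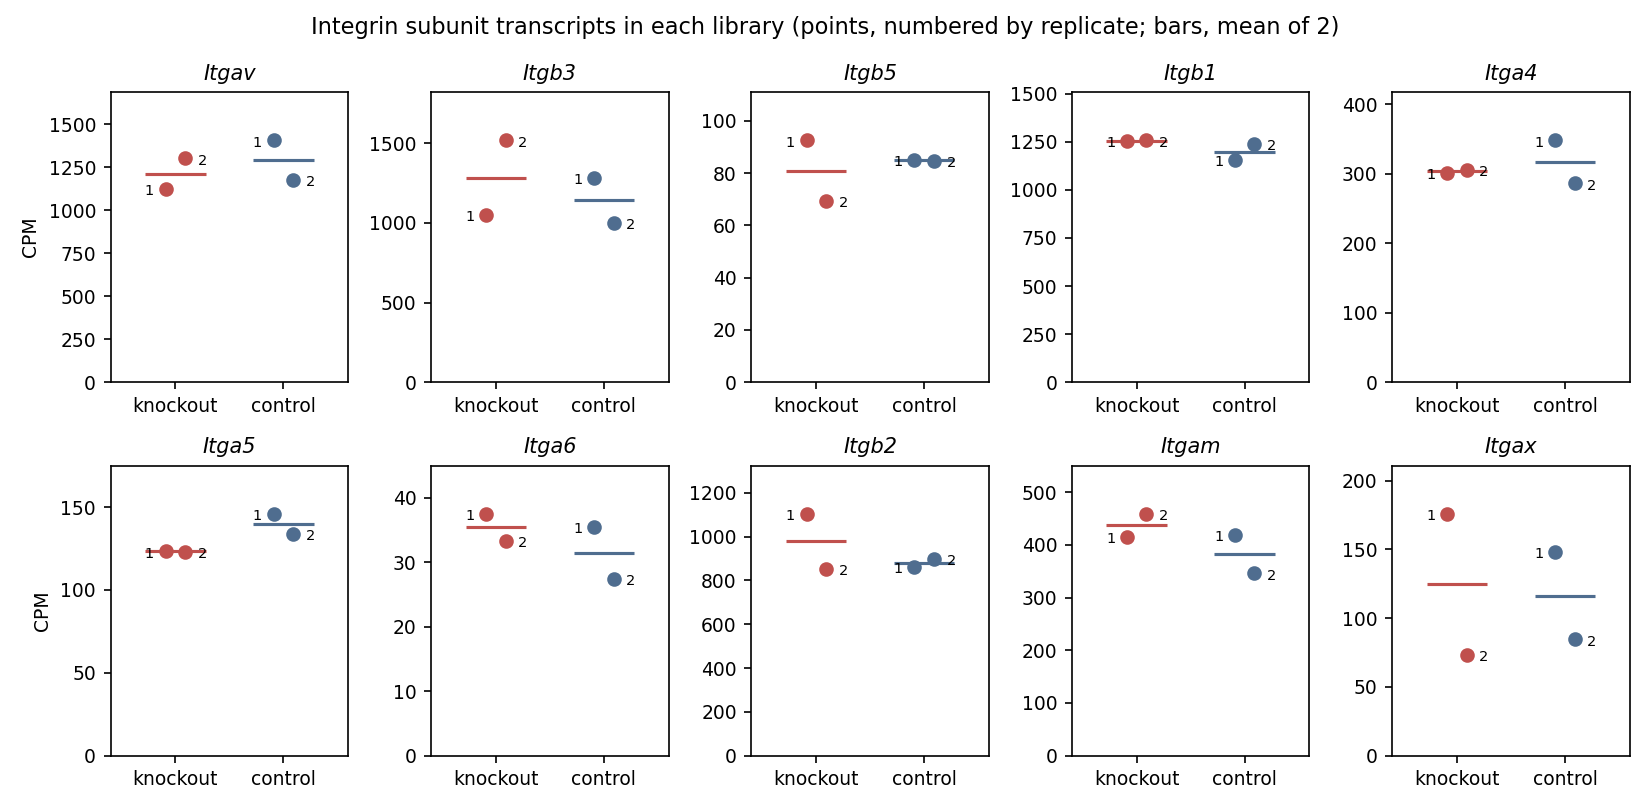
Level of each integrin subunit in CPM (y axes from 0) in the 2 knockout and the 2 control libraries; points are libraries with their replicate number, bars are means of 2. Knockout libraries lie above both controls for Itgb1 and below both for Itga5, and the groups overlap for the other 8 subunits.

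Among the beta1 set, the beta subunit and the fibronectin receptor alpha subunit were the most even between libraries of a genotype. Itgb1 (ENSMUSG00000025809.15; chromosome 8, 128685654 to 128733200, plus strand), the beta subunit that pairs with most matrix-binding alpha subunits, was at 1254 and 1258 CPM in the knockouts, against 1155 and 1238 CPM in the controls. Both knockouts lay above both controls, by a log2 fold change of 0.070 (SE 0.11, interval −0.18 to 0.32). Itga5, which with Itgb1 forms the fibronectin receptor (ENSMUSG00000000555.8; chromosome 15, 103344286 to 103366763, minus strand), was at 123.3 and 123.2 CPM in the knockouts, against 146 and 134 CPM in the controls. Both knockouts lay below both controls. The log2 fold change was −0.18 (SE 0.09, interval −0.39 to 0.03), with an unadjusted p of 0.0848, the smallest of the 10 subunits, and an adjusted p of 0.99975 with limma.

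Itga4, the alpha subunit that binds VCAM-1 and fibronectin (ENSMUSG00000027009.18; chromosome 2, 79255426 to 79333123, plus strand), was at 302 and 306 CPM in the knockouts, against 348 and 286 CPM in the controls. The knockouts lay between the controls, and the log2 fold change was −0.055 (SE 0.11, interval −0.32 to 0.21). Itga6, a laminin-binding alpha subunit (ENSMUSG00000027111.15; chromosome 2, 71745616 to 71858416, plus strand), was the lowest of the 10, at 37.5 and 33.3 CPM in the knockouts and 35.5 and 27.4 CPM in the controls. Its groups overlapped, with a log2 fold change of 0.17 (SE 0.15, interval −0.17 to 0.52). The value in control 2 rested on 392 reads, which gives a 95% Poisson interval of 24.8 to 30.3 CPM for counting error only. The summed level of the beta1 set was 1716 and 1720.1 CPM in the knockouts and 1684.9 and 1685 CPM in the controls.

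The leukocyte integrins share the beta2 subunit and serve adhesion to endothelium, binding of complement and phagocytosis. Itgb2 (ENSMUSG00000000290.13; chromosome 10, 77530252 to 77565708, plus strand) was at 1104 and 852 CPM in the knockouts, against 863 and 897 CPM in the controls. Knockout 1 was the highest library and knockout 2 the lowest, so the groups overlapped, with a log2 fold change of 0.14 (SE 0.14, interval −0.19 to 0.47). Itgam, the alpha subunit of complement receptor CR3, also called CD11b (ENSMUSG00000030786.18; chromosome 7, 128062640 to 128118491, plus strand), was at 416 and 459 CPM in the knockouts, against 419.7 and 346 CPM in the controls. Control 1 lay between the knockouts and control 2 below both, with a log2 fold change of 0.20 (SE 0.12, interval −0.08 to 0.48).

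Itgax, the alpha subunit CD11c of macrophages and dendritic cells, lies 11.1 kb from Itgam (ENSMUSG00000030789.9; chromosome 7, 128129547 to 128150657, plus strand). It was at 176 and 73.3 CPM in the knockouts, against 148 and 84.6 CPM in the controls. Within each genotype the library numbered 1 was the higher, by 2.40-fold in the knockouts and 1.75-fold in the controls, while the genotypes differed by a log2 fold change of 0.021 (SE 0.39, interval −0.90 to 0.94). Counting error was small beside this, with 95% Poisson intervals of 169 to 183 CPM for knockout 1 and 69.5 to 77.4 CPM for knockout 2. The spread of Itgax within genotypes was larger than that of 99.5% of all genes tested. The direction of its genotype difference depended on single libraries, with a log2 fold change of −0.61 without knockout 1, 0.65 without knockout 2, 0.42 without control 1 and −0.38 without control 2, and on the scaling, with −0.0027 when each library was set to the same sum.

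The bases before the start of Itgam and Itgax are printed because the neighbouring genes differed in their spread between libraries, 2.40-fold for Itgax and 1.10-fold for Itgam between the knockouts. The runs are again the 250 bases before the RefSeq start on GRCm38.p6, 5′ to 3′ on the plus strand, at chr7:128062390-128062639 for Itgam and chr7:128129300-128129549 for Itgax, with GAGGAA or TTCCTC in capitals.
Itgam: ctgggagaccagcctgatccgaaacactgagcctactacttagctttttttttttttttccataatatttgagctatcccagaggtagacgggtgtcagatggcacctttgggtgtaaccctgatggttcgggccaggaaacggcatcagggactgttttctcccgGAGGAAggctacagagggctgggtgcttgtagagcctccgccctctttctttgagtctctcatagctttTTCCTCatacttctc
Itgax: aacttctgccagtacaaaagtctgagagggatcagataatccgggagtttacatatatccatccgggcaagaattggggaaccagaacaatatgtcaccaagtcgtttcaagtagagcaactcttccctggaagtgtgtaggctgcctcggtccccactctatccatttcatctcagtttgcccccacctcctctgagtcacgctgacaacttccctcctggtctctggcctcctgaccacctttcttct
The Itgam window held 2 matches, starting 84 and 15 bases before the start, and the Itgax window held 0. The AP-1 motif TGANTCA, also searched on both strands, was in the window of 1 of the 7 subunits, Itgax, and in 4.59% of the windows of genes in the table. The NFAT core GGAAA, whose matches can overlap those of GAGGAA, was in 3 of the 7 windows (Itgb1, Itga5 and Itgam) and in 54.0% of the windows of genes in the table. The RUNX core TGTGGT was in 1 of the 7, Itga4, and in 10.7%.

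The osteoclast and the leukocyte sets were compared as sets within each library. The levels were log2(CPM + 0.5) without correction for gene length, so they do not show which set had more transcripts. The mean log2 level of the 3 vitronectin receptor subunits was 8.90 and 9.01 in the knockouts and 9.07 and 8.86 in the controls. For the 3 leukocyte subunits it was 8.76 and 8.26 in the knockouts and 8.56 and 8.22 in the controls. The difference between the sets, vitronectin receptor minus leukocyte, was 0.15 and 0.75 log2 units in the knockouts and 0.51 and 0.64 in the controls, so both control values lay between the knockout values. The knockout mean minus the control mean of this difference was −0.13 log2 units, within the spread between replicates of 0.31 (pooled SD), and it was 0.18 without knockout 1, −0.43 without knockout 2, −0.19 without control 1 and −0.057 without control 2. The median log2 fold change was −0.082 for the vitronectin receptor set, 0.0075 for the beta1 set and 0.14 for the leukocyte set, beside 0.0016 over all genes tested. With 1 library left out, these medians ran from −0.11 (without knockout 2) to 0.037 (without control 1) for the vitronectin receptor set, from −0.10 (without control 2) to 0.053 (without control 1) for the beta1 set and from −0.047 (without knockout 1) to 0.34 (without control 1) for the leukocyte set. With the members chosen by name, these medians carry no p-value.

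Compared per kilobase of annotated exon, Itgb2 and Itgb1 were the most abundant of the 10 subunits, at 304 ± 38.8 and 300.4 ± 11.7 CPM per kb (SD over 4 libraries), and their order was not settled, with Itgb2 above Itgb1 in 1 of 4 libraries. Itgb3 followed at 206 ± 40.4, then Itgav at 117 ± 11.8 and Itgam at 81.6 ± 9.37 CPM per kb, each above the next in 4 of 4 libraries. Itga5 (26.7 ± 2.19), Itgax (25.1 ± 10.3), Itgb5 (23.3 ± 2.73) and Itga4 (22.2 ± 1.89) overlapped in their ranges, and each was above the next in 2 of 4 libraries. Itga6 was below all of these, at 3.70 ± 0.48 CPM per kb. With the longest coding transcript as the length, Itgb1 came before Itgb2, and Itga4 before Itga5.

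**Figure D3:**
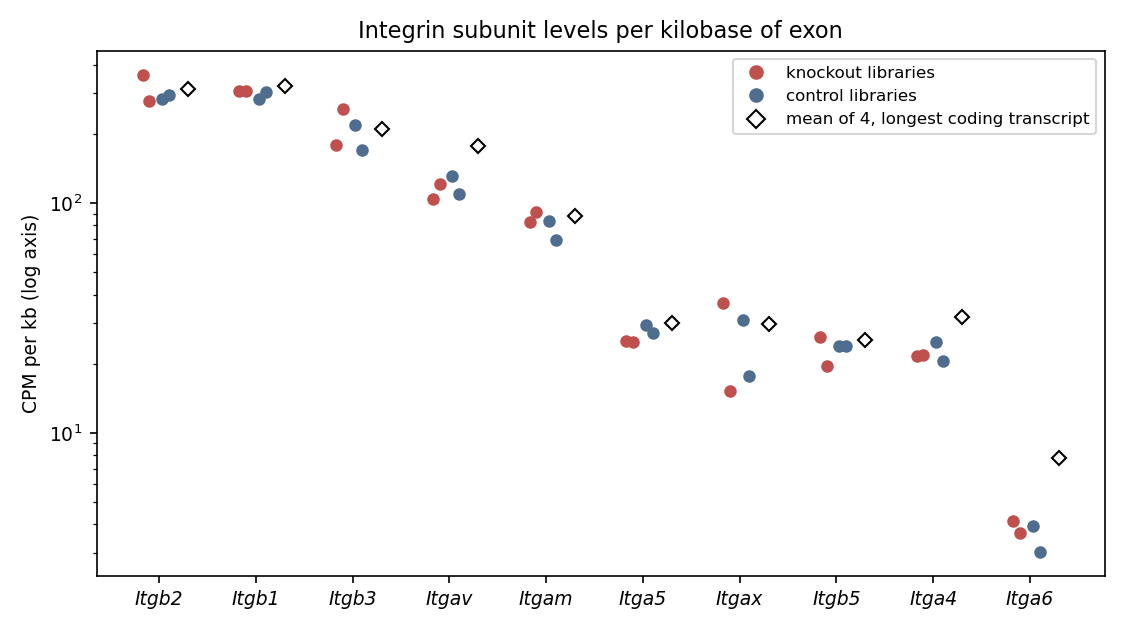
Level of each subunit in CPM per kilobase of annotated exon (log axis), ordered by the mean of 4 libraries; filled points are knockout and control libraries, and open diamonds the mean of 4 with the longest coding transcript as the length. Itgb2, Itgb1 and Itgb3 are highest and Itga6 lowest, and Itga5, Itgax, Itgb5 and Itga4 overlap.

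Ratios of subunits that can pair, or that mark the osteoclast against the leukocyte set, were also taken within libraries per kilobase of exon. There were 8 ratios, chosen after the values were seen, and groups did not overlap in 3, beside 31.9% of all single genes tested. These 3 are not independent, since all hold Itgav. Itgb3 over Itgav was 1.70 and 2.12 in the knockouts and 1.66 and 1.55 in the controls, and with Itgb5 added to Itgb3 it was 1.95 and 2.28 in the knockouts and 1.85 and 1.76 in the controls. Itgav over Itgam was 1.26 and 1.33 in the knockouts and 1.57 and 1.59 in the controls. Itgb2 over the sum of its listed alpha subunits Itgal, Itgam and Itgax was 2.93 and 2.57 in the knockouts and 2.39 and 3.31 in the controls, with overlapping groups. Itgb1 over the sum of the 10 listed alpha subunits that pair with it, Itgav left out, was 4.57 and 4.05 in the knockouts and 3.40 and 4.32 in the controls. No ratio was tested. The size of a ratio depends on the gene lengths, and with the longest coding transcript Itgb3 over Itgav averaged 1.28 in the knockouts and 1.07 in the controls. Another length scales a ratio of single genes alike in every library, so it leaves the overlap of the groups as it is. Ratios with sums are not scaled alike, but with the longest coding transcript their overlap was also unchanged.

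Differences between libraries of a genotype ran in more than 1 pattern across the family. For 9 of the 10 subunits the larger of the within-genotype fold differences exceeded the fold between the genotype means. Single libraries vary more than means do, and the share over all genes was not taken, so this count describes no trait of the subunits. Itgb3 and Itgav, with Itga2, a collagen-binding subunit at 95.3 and 152 CPM in the knockouts and 146 and 99.96 CPM in the controls, were higher in knockout 2 than in knockout 1 and higher in control 1 than in control 2. Itga4 of the beta1 set and Itgam of the leukocyte set had the same order, so it was not particular to the vitronectin receptor set. Itgb5, of the vitronectin receptor set, did not have it, since knockout 1 was above knockout 2. All 10 osteoclast markers were higher in knockout 2 than in knockout 1, and 9 of 10 were higher in control 1 than in control 2. Among all genes tested these shares were 50.1% and 49.6%. Nfatc1, the transcription factor that drives osteoclast formation, was at 736 and 1036 CPM in the knockouts and 926 and 773 CPM in the controls, and Ocstamp, a cell fusion gene, at 199 and 334 CPM in the knockouts and 329 and 212 CPM in the controls.

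Itgax and Itgal, the alpha subunit of LFA-1, were higher in the library numbered 1 within each genotype. Itgal was at 26.8 and 11.9 CPM in the knockouts and 25.8 and 15.0 CPM in the controls. Itgb5 and Itga6 were also higher in that library, so the order was not particular to leukocyte integrins. For Itgb5 the controls were nearly alike, at 85.0 and 84.7 CPM. Of the 8 macrophage and monocyte markers, 6 were higher in knockout 1 than in knockout 2 and 8 in control 1 than in control 2, among them Adgre1, which encodes F4/80, at 51.7 and 36.0 CPM in the knockouts and 49.9 and 26.3 CPM in the controls, and Lyz2, lysozyme of myeloid cells, at 655 and 360.4 CPM in the knockouts and 561 and 344 CPM in the controls. The other two had the opposite order in the knockouts and were abundant: Csf1r, the M-CSF receptor, was at 1309.7 and 1570.2 CPM in the knockouts and 1427 and 1201 CPM in the controls, and Cd68, a lysosomal protein of macrophages, at 1279 and 1607 CPM in the knockouts and 1429 and 1394 CPM in the controls. The summed level of the 8 markers was thus higher in knockout 2 than in knockout 1, at 3314 and 3587 CPM in the knockouts and 3484 and 2975 CPM in the controls. Itgam did not share the order of Itgax, since knockout 2 was above knockout 1. Its order within each genotype was that of Itgb3 and Itgav. The single listed dendritic cell marker, Zbtb46, was at 5.02 and 4.67 CPM in the knockouts and 3.83 and 4.27 CPM in the controls. The part of the cell types behind these markers in the spread of the subunits was not tested. With 4 libraries no correlation is given, and the genes in this comparison, other than the fixed marker lists, were chosen after their values were seen.

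**Figure D4:**
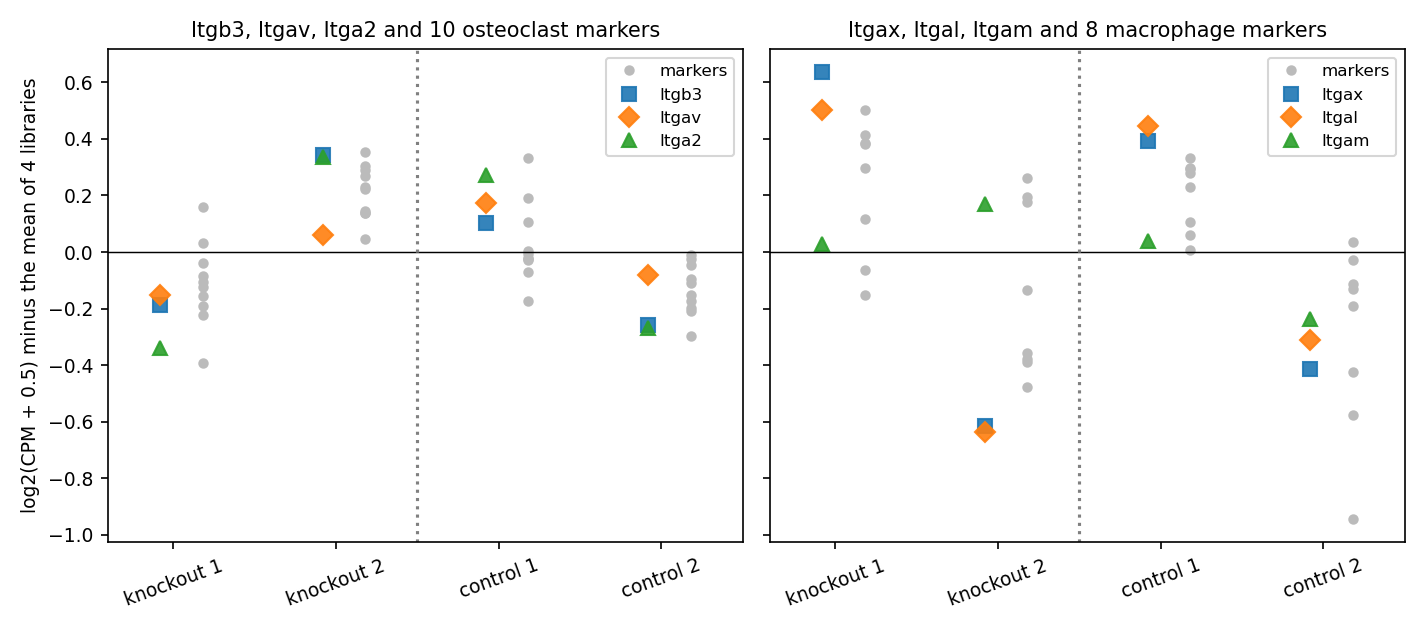
Log2(CPM + 0.5) minus the mean of the 4 libraries, by library, for Itgb3, Itgav and Itga2 beside 10 osteoclast markers (left) and for Itgax, Itgal and Itgam beside 8 macrophage markers (right); grey points are markers and the dotted line parts the genotypes. Itgb3 and Itga2 are above 0 in knockout 2 and control 1, and Itgax and Itgal in knockout 1 and control 1.

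Of the 17 other integrin subunits searched, 12 were listed, 10 were tested and 0 were called by limma, edgeR or DESeq2. An unadjusted limma p under 0.05 was seen for 2, beside 4.9% of all genes tested, and the median log2 fold change was −0.12. The most abundant beside Itga2 was Itgb7, which pairs with Itga4 and Itgae, at 108 and 87.5 CPM in the knockouts and 95.3 and 109 CPM in the controls. Itga1 and Itga11 had the smallest unadjusted p in this list. Itga1, a collagen-binding subunit, was at 4.09 and 5.16 CPM in the knockouts and 7.14 and 7.77 CPM in the controls (log2 fold change −0.64, limma adjusted p = 0.744), and Itga11, a subunit of mesenchymal cells, at 5.68 and 10.8 CPM in the knockouts and 12.0 and 15.3 CPM in the controls (−0.75, limma adjusted p = 0.950). Itgae was at 2.57 and 2.88 CPM in the knockouts and 3.51 and 3.01 CPM in the controls. Of the 12 stromal markers tested, 9 were below both controls in both knockouts, beside 15.4% of all genes, with a median log2 fold change of −0.61. With limma 0 of them passed, with DESeq2 7 passed, all lower, beside 0.56% of all genes, and their part in these values was not tested.

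Beyond the subunits, 93 genes of integrin activation, signalling, ligands and membrane partners were tested. With limma 2 passed, both ligands and both lower, beside 0.161% of all genes tested. Among 10 RGD-containing ligands of alphav integrins, 9 were tested, 0 rose, 2 fell and 7 did not pass with limma, where 0.119% of all genes fell, and DESeq2 called 4, all lower, where it called 0.56% of all genes. Thbs1, thrombospondin-1, was at 169 and 218 CPM in the knockouts, against 425 and 411 CPM in the controls (log2 fold change −1.12, SE 0.13, limma adjusted p = 0.0284). Fbn1, the microfibril protein fibrillin-1, was at 46.6 and 45.1 CPM in the knockouts, against 80.7 and 77.9 CPM in the controls (−0.78, SE 0.09, limma adjusted p = 0.0357). Fn1, fibronectin, the ligand of Itga5, was at 771 and 796 CPM in the knockouts, against 1621 and 1263 CPM in the controls, and passed with DESeq2 (adjusted p = 5.75e-08) but not with limma (adjusted p = 0.111), as did Tnc, tenascin-C (adjusted p = 0.000659 with DESeq2 and 0.111 with limma). With limma, Thbs1 and Fbn1 no longer passed without control 1 (adjusted p = 0.198 and 0.28) or without control 2 (0.275 and 0.309), while their log2 fold changes there were −1.10 and −1.15 for Thbs1 and −0.76 and −0.81 for Fbn1. Both passed without knockout 1 (0.00139 and 0.00657) and without knockout 2 (7.76e-05 and 0.0146), and neither passed without the intensity trend in the variance model (0.345 and 0.307). Fn1 passed without knockout 1 (0.0236) or knockout 2 (0.0251) and Tnc without knockout 1 (0.0082).

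The bone ligands of the vitronectin receptor did not pass. Spp1, osteopontin, the most abundant ligand, was at 3944 and 3427 CPM in the knockouts and 3124 and 4110 CPM in the controls, with a log2 fold change of 0.04, and its groups overlapped. Ibsp, bone sialoprotein, was at 69.8 and 34.6 CPM in the knockouts and 66.1 and 82.9 CPM in the controls, also with overlap. Edil3, an RGD protein that binds alphav integrins, was at 464 and 483 CPM in the knockouts and 447 and 386 CPM in the controls. Over the 9 ligands tested the median log2 fold change was −0.59. The summed level of the stromal markers was also below both controls in both knockouts, and its part was not tested.

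The list of beta1 integrin ligands held laminin chains, nidogen-1 and VCAM-1, with fibronectin among the RGD ligands above. Of its 9 tested genes, 0 passed with any of the 3 tools. An unadjusted limma p under 0.05 was seen for 5, beside 4.9% of all genes tested. All 9 had a negative log2 fold change, with a median of −0.45, and 6 were lower in both knockouts than in both controls, beside 15.4% of all genes tested. Lamc1, a laminin gamma chain, was at 98.9 and 96.3 CPM in the knockouts and 119 and 105 CPM in the controls. Nid1, the basement membrane protein nidogen-1, was at 28.1 and 30.1 CPM in the knockouts and 40.5 and 37.4 CPM in the controls (limma adjusted p = 0.542). Lama5 and Lamb2, laminin chains, had limma adjusted p of 0.588 and 0.881. Here too the part of the stromal markers was not tested. Of the beta2 ligands, 3 were tested and 0 passed with any of the 3 tools, and 0 had an unadjusted limma p under 0.05. Icam1, which binds Itgal and Itgam with Itgb2, was at 77.6 and 68.9 CPM in the knockouts and 65.8 and 66.1 CPM in the controls. The complement protein C3, whose cleaved form binds CR3, was at 10.6 and 8.64 CPM in the knockouts and 11.3 and 14.1 CPM in the controls. Jam3 had the smallest p of these 3 (limma adjusted p = 0.99975). It was at a low level, 0.86 and 0.38 CPM in the knockouts and 1.30 and 1.40 CPM in the controls.

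Of the integrin activators, inhibitors and adhesion adaptors, which act on integrins from inside the cell, 0 of 28 tested were called by any of the 3 tools. For 3 the unadjusted limma p was under 0.05, beside 4.9% of all genes tested. Tln1, talin-1, which binds beta tails, was at 1602 and 1515 CPM in the knockouts and 1534 and 1438 CPM in the controls, and Fermt3, the kindlin of blood cells, at 315 and 310.5 CPM in the knockouts and 289.8 and 289.3 CPM in the controls. The 3 genes with the smallest p were low-level paralogs. Parva, alpha-parvin, was at 8.71 and 8.53 CPM in the knockouts and 14.9 and 13.9 CPM in the controls (log2 fold change −0.71, SE 0.15, limma adjusted p = 0.264). Fermt2 was at 12.3 and 11.9 CPM in the knockouts and 15.6 and 19.9 CPM in the controls (limma adjusted p = 0.764), and Tln2 at 6.14 and 6.85 CPM in the knockouts and 8.31 and 10.3 CPM in the controls (limma adjusted p = 0.951). The part of the stromal markers in these 3 values was not tested. Tns1, tensin-1, named after its values were seen, was at 207 and 472 CPM in the knockouts and 245 and 46.8 CPM in the controls, with a log2 fold change of 1.54 (SE 0.69, limma adjusted p = 0.99975) and a 5.23-fold difference between the controls.

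Of the signalling genes downstream of integrins, 0 of 31 tested were called by any of the 3 tools and 0 had an unadjusted limma p under 0.05. Their log2 fold changes lay between −0.24 and 0.20, and the intervals of some reached further, to −1.03 to 0.56 for Fgr, a Src family kinase of myeloid cells. Src, the kinase needed for the ruffled border, was at 448 and 537 CPM in the knockouts and 494 and 488 CPM in the controls, and Syk, a kinase at beta3 integrins and ITAM adaptors, at 532 and 531 CPM in the knockouts and 514 and 524 CPM in the controls. Vav3, an exchange factor for Rac in osteoclasts, had the smallest p of the list, at 109 and 110.1 CPM in the knockouts and 101 and 90.3 CPM in the controls (limma adjusted p = 0.99975). Ptk2b, which encodes Pyk2, was at 191 and 186 CPM in the knockouts and 181 and 162 CPM in the controls, and Vav1 at 121 and 101 CPM in the knockouts and 94.5 and 103 CPM in the controls. Of the 13 membrane partners, 0 were called by limma, edgeR or DESeq2, and the smallest unadjusted p was 0.17. Sirpa, the receptor of CD47, was at 1108.5 and 1103 CPM in the knockouts and 977 and 1014 CPM in the controls, the tetraspanin Cd63 at 950.4 and 875 CPM in the knockouts and 712 and 892 CPM in the controls, and Cav1, caveolin-1, at 29.6 and 22.4 CPM in the knockouts and 46.9 and 25.2 CPM in the controls.

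**Figure D5:**
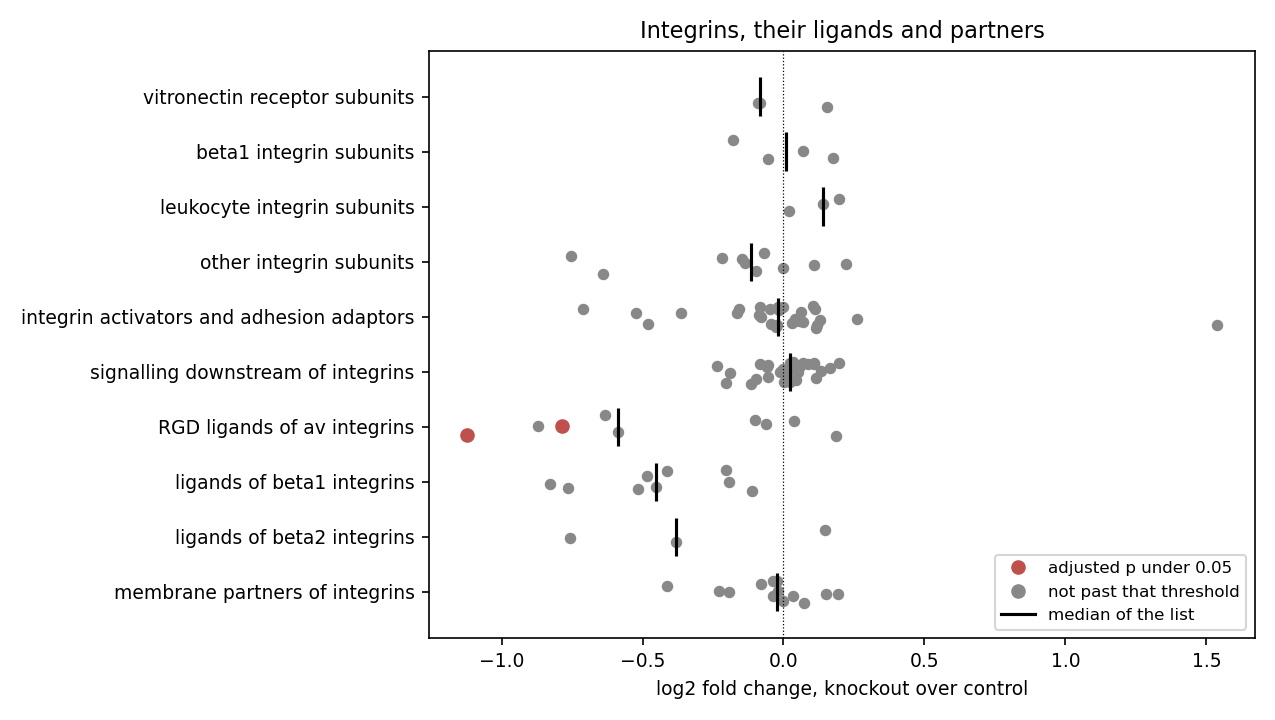
Log2 fold change (knockout over control) of each tested gene, by list; red points had a limma adjusted p under 0.05, grey points did not, and black bars are medians. The 2 red points are Thbs1 and Fbn1 among the RGD ligands, the 3 integrin subunit sets lie near 0, and the grey point at 1.54 is Tns1.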

How the data were processed

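The authors deposited 1 table of normalised signal for 12799 genes in 4 libraries; the submitters' processing notes name STAR, featureCounts, Subread, edgeR, mm10 and GRCm38, with no versions. Each column held whole multiples of its smallest positive value (100% of values within 0.001 reads), which gave back read counts, and the signal was read as CPM. Low-count filter, annotation release and strand setting were not given in the sources used here. Genes annotated over exons of Itgav, Itga4 and Itgam could share their reads.

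limma 3.58.1 with an intensity trend was fitted to log2(CPM + 0.5), with genotype alone in the model, for the 11781 genes that reached 1 CPM in 2 or more libraries, with 2-sided p-values adjusted over all of them (Benjamini-Hochberg). Fold changes on this scale understate low genes. limma called 5 genes higher and 14 lower. edgeR 4.0.16 and DESeq2 1.42.0, on the recovered reads, called 19 and 66. The fits were also run on simulated reads, and since that outcome is not given here, nothing is drawn from it.

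Lengths and positions came from GENCODE M21 on GRCm38. The named genes were all 10 subunits, Piezo1 and, of each other list, the genes that passed or otherwise the 3 with the smallest p. The 4 most abundant other subunits were added. The cell type markers named here did not follow this rule. Further genes were named after their values were seen. The members and lists were chosen with earlier results of these data known. Alternatives were other pseudocounts, filters, scalings, variance models, a replicate block and leaving out each library, and another gene length was added later. The p-values measure the spread between libraries, which the design text calls biological replicates. Poisson intervals are at 95% and cover counting error only. R 4.3.3, Python 3.11.15, SciPy 1.17.1, pandas 2.3.3 and matplotlib 3.10.9 were used.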

Additional observations from a re-analysis of the deposited data

How the results depend on the processing

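None of the 10 subunits was called under any of the 16 alternatives run, with a lowest adjusted p of 0.430. Of 160 subunit values, 50 equalled the reported log2 fold change because the alternative altered the filter, the variance model or the block alone. Of the 40 with 1 library left out, 10 changed sign, and of the other 70, 1 did. The 11 were Itgax with each library set to the same sum (−0.0027) and 10 with 1 library left out, whose log2 fold changes ranged from −0.22 to 0.037 for Itgav, −0.11 to 0.42 for Itgb3, −0.29 to 0.12 for Itgb5, −0.20 to 0.086 for Itga4, −0.0084 to 0.36 for Itga6, −0.047 to 0.33 for Itgb2 and −0.61 to 0.65 for Itgax. The sign changed without knockout 1 for Itgav, Itgb2 and Itgax, without knockout 2 for Itgb3 and Itgb5, without control 1 for Itgav and Itga4, and without control 2 for Itgb3, Itga6 and Itgax. In these fits the single library left in a group was taken to vary like the others.

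Counts over all genes depended more on the fit. Against 5 higher and 14 lower genes, there were 2 higher and 2 lower without an intensity trend and 10 higher and 56 lower with DESeq2. With 1 library left out they ranged from 2 to 18 higher and from 4 to 75 lower. With 1 library left out the set medians ranged from −0.10 to 0.053 for the beta1 set, −0.11 to 0.037 for the vitronectin receptor set and −0.047 to 0.34 for the leukocyte set. The cause was not tested. The labels give both genotypes replicates 1 and 2, but nothing says that a number marks a shared batch, and deviations of the same-numbered libraries from their group means were not correlated across genes (r = −0.0016). With the replicate number as a block in limma, 18 genes were higher and 71 lower, and 0 subunits were called. In that fit Thbs1 and Fbn1 passed (limma adjusted p = 4.39e-05 and 0.00185), as did Fn1 and Tnc (0.00839 and 0.014). The block leaves each gene 1 residual degree of freedom, so these p-values rest mainly on variance borrowed from other genes. They add no weight to the calls. With 2 libraries a group, differences inside each interval remain possible, and the intervals are no limit of detection. Larger differences could also miss the threshold, as did Fn1 in the main limma fit (log2 fold change −0.87, adjusted p = 0.111).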
